A study of Sus scrofa with 2 samples.

Results

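KRTDAP, SBSN and SPRP, 3 genes of the differentiating epidermis, were followed through the cells of pig skin. They were taken by name from the gene lists of both deposited matrices, where each name occurred once among 31908 genes, of which 23334 had at least 1 count in either library. Dorsal skin of male farm pigs was dissociated into single cells, and RNA was counted cell by cell in droplets, with 10x Genomics 3′ chemistry, as unique molecular identifiers (UMIs), so that PCR copies of 1 transcript count once. The study asked whether skin cells can be stored before library construction. The fresh library came from cells that were not frozen (treatment label none), and the cryopreserved library from cells labelled frozen, kept in 90% FBS + 10% DMSO. The extraction protocol attached to both samples describes freezing, so the fresh library is so called from its title, its treatment label and the study's methods. Per the labels dead cells were removed by FACS before library construction, and the study's methods describe scatter gates against doublets in that sort. Whether the cells of both conditions were from 1 animal is not given in the sources used here. With 1 library per condition there was no test, every difference describes this pair of libraries, and each interval is an exact 95% interval for counting error only.

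The epidermis renews itself from a basal layer of dividing keratinocytes, marked by the keratins KRT5 and KRT15. Cells that leave this layer switch to the keratins KRT1 and KRT10, and later they build the cornified envelope, a shell of cross-linked protein and attached lipid beneath the plasma membrane. KRTDAP (keratinocyte differentiation associated protein) and SBSN (suprabasin) are secreted proteins of the suprabasal layers, and the small proline-rich proteins are precursors that transglutaminases cross-link into the envelope. SPRP is the small proline-rich protein of the pig annotation.

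In the RefSeq models on Sscrofa11.1, KRTDAP (ENSSSCG00000002882) spans 44932195 to 44935921 on the minus strand of chromosome 6, and SBSN (ENSSSCG00000033702) spans 44960693 to 44966592 on the same strand. DMKN (dermokine, another secreted protein of differentiating keratinocytes) lies between them. SPRP (ENSSSCG00000022269) lies on the minus strand of chromosome 4, from 96588991 to 96590696, in 2 exons. The coding sequences are shown because the 3 transcripts differ in composition while their UMIs were found almost entirely in keratinocyte-like cells. KRTDAP has 2 models. The capitals mark the 42-base exon at chr6:44933739-44933780 that only the longer model holds, and counts per gene cannot tell the models apart. For SBSN the stretch of 50 codons richest in GGN codons (glycine) is shown, chr6:44964253-44964402, with those codons in capitals. It holds 13 of them, and the longest coding model holds 105 among its 539 codons. For SPRP the coding sequence, chr4:96589301-96589594, is shown with 5 tandem units of 24 bases in capitals, at bases 115 to 234. Of its 97 codons, 31 are CCN (proline), against 7 of 99 in the longer KRTDAP model.
KRTDAP coding sequence: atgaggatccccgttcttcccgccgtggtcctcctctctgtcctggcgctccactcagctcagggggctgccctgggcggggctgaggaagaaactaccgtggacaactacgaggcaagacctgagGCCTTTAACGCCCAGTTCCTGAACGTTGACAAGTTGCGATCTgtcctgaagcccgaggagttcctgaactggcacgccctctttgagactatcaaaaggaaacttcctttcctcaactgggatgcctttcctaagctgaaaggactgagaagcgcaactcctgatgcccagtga
SBSN coding stretch: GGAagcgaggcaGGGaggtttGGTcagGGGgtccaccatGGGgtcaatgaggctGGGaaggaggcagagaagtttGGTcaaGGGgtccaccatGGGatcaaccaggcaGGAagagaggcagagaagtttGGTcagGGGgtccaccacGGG
SPRP coding sequence: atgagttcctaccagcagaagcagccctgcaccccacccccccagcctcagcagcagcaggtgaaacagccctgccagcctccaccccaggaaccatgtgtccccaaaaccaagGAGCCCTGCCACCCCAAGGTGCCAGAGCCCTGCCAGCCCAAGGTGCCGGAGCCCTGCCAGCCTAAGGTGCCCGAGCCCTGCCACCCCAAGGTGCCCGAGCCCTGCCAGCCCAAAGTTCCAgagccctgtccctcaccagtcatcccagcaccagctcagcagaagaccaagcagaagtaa

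SPRP is the only one of the 3 genes with a curated RefSeq transcript, so its upstream 250 bases are shown as well, chr4:96590697-96590946 on the minus strand, with matches in capitals. Positions count back from the transcript start. The letters TATAAA, a core promoter element, lie at -22 to -17. The letters TGANTCA (AP-1, with any base taken at N), here TGAATCA, lie at -104 to -98. They overlap a match to CACCC (KLF) on the other strand at -107 to -103. CACCC also matched at -60 to -56 and at -156 to -152. Both strands were searched. In 19556 promoter windows of the same length, TATAAA was found in 9.77%, TGANTCA in 5.27% and CACCC in 53.9%. AACCNGTT (GRHL), found in 1.40% of windows, was not among the letters of this one. In the same search upstream of the other genes, KRTDAP matched only CACCC, at -51 to -47, and SBSN only TATAAA, at -216 to -211. These are matches of letters and not sites. No other place in the genome matched the last 300 exonic bases of any of the 3 genes over at least 100 bases with at least 90% identity.
SPRP upstream: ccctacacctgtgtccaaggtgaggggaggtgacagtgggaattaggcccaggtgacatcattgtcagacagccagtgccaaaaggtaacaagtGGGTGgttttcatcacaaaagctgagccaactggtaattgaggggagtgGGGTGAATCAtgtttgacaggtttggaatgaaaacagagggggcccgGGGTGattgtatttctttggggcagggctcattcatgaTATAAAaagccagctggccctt

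The matrices hold 4379 fresh and 4860 cryopreserved barcodes, of which 2775 and 4223 lay within the study's maxima of 4500 genes, 30000 UMIs and 10% mitochondrial UMIs. These filtered cells hold 32274985 and 36687009 UMIs, with a median per cell of 11017 and 7945, and the libraries share 5 cell barcodes. The cells were clustered without the 3 genes among the clustering features, and 5 of 23 clusters were keratinocyte-like by marker genes that do not include them. Cluster 12 was differentiated keratinocyte-like, with all 8 markers of that list (KRT1, KRT10, DSG1, DSC1, KRT2, LYPD3, CALML5 and SERPINB5). Clusters 2, 9, 10 and 19 were epidermal stem-like by KRT5, KRT15, ITGA6 and other basal markers, but their leading genes differed. Cluster 2 also passed the naming limits for 5 of the 8 differentiated markers, and cluster 10 for 3. Cluster 2 was led by MMP3, cluster 9 by HSD17B2 with PTHLH and SOX9, and cluster 10 by ASCL2 with KRT15. Cluster 19 was led by genes of dividing cells such as DIAPH3 and CDC20. Cluster 9 and cluster 19 had more markers of another class among their 10 leading genes than of their own, so single clusters, not the stem-like class, were compared between libraries. Markers of other lineages were low but not absent in cluster 12. The 8 fibroblast markers summed to 260.2 CPM in the fresh and 203 CPM in the cryopreserved library. CPM are UMIs of a gene per 1000000 UMIs of the same cells. Smooth muscle markers summed to 153 and 222 CPM, of which NOTCH3 gave 88.4 and 169 CPM. Erythrocyte markers summed to 176 and 181 CPM, and 5 of 5 and 3 of 5 mast cell markers were at 0. Their part in the values below was not tested.

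All 3 genes were found almost entirely in keratinocyte-like cells. In the fresh library, 99.4% of KRTDAP UMIs, 99.6% of SBSN UMIs and 99.2% of SPRP UMIs lay in these clusters, which held 530 of 2775 cells. In the cryopreserved library the shares were 99.2%, 99.3% and 99.0%, in 1058 of 4223 cells. The KRTDAP level was 522-fold (435 to 631) higher in keratinocyte-like cells than in all other clusters of the fresh library and 287-fold (253 to 328) higher in the cryopreserved library. For SBSN the folds were 850-fold (331 to 3124) and 336-fold (203 to 602), and for SPRP 404-fold (235 to 760) and 234-fold (161 to 352). All 3 genes passed 16-fold in both libraries, which 1.68% of 11692 genes did.

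Outside the keratinocyte-like clusters the levels were low, and a few cells held much of what was found. KRTDAP stood at 4.81 CPM in the fresh and 9.02 CPM in the cryopreserved library, SBSN at 0.163 and 0.576 CPM, and SPRP at 0.530 and 1.08 CPM. A KRTDAP UMI was seen in 16 of 17 other clusters of the fresh library and 18 of 18 of the cryopreserved library. An SBSN UMI was seen in 4 and 9 of them. The 5 cells richest in the 3 genes held 31.9% (fresh) and 50% (cryopreserved) of their UMIs outside keratinocytes. Summed over clusters, KRTDAP made up 87.4% and 84.5% of the UMIs of the 3 genes outside the keratinocyte-like clusters and 87.7% and 85.3% within them. There were 7.44 and 7.58 KRTDAP UMIs per 100 UMIs of KRT1, KRT10, KRT5 and KRT15 outside, and 8.25 and 9.07 within. Single clusters, on few UMIs, varied widely: in the cryopreserved library this number ran from 1.64 in cluster 6 to 40.4 in cluster 7. The highest level outside was 134 CPM of KRTDAP in cluster 20 of the cryopreserved library, an ARG1-led myeloid-like cluster. There, 1 of 44 cells held 50 of the 57 UMIs of the 3 genes, and the cluster carried 1586 CPM of the 4 keratins. The next highest cluster of that library had 28.8 CPM.

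Among keratinocyte-like cells KRTDAP set the differentiated cluster apart most clearly. Its level in cluster 12 was 9596 CPM (9445 to 9748) in the fresh library and 9527.5 CPM (9393 to 9663) in the cryopreserved library. The remaining clusters followed at 985 and 1523 CPM in cluster 2, 1317 and 562 in cluster 19, 433 and 838 in cluster 9, and 162 and 363 in cluster 10. Both libraries placed cluster 12 highest and cluster 9 above cluster 10, with intervals apart. Cluster 19 changed place between the libraries: in the fresh library it (1192 to 1451) lay above cluster 2 (949 to 1023), and in the cryopreserved library it (514 to 613) lay below cluster 9 (801 to 876). Cluster 12 over the other keratinocyte-like clusters together was 14.8-fold (14.3 to 15.3) in the fresh and 9.80-fold (9.55 to 10.1) in the cryopreserved library.

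SBSN was also highest in cluster 12 and lowest in cluster 10. Its level was 410.2 and 401 CPM in cluster 12, 121 and 278 CPM in cluster 2, 77.7 and 80.3 CPM in cluster 19, 33.9 and 92.7 CPM in cluster 9, and 4.62 and 5.97 CPM in cluster 10. Cluster 2 lay above cluster 9 in both libraries, with intervals apart, while cluster 19 was not separated from cluster 2 in the fresh library nor from cluster 9 in the cryopreserved library. In the ASCL2-led cluster 10 the counts were 8 and 12 UMIs in all, and cluster 12 over cluster 10 was 88.8-fold (44.8 to 206) and 67.2-fold (38.2 to 131), against 59.3-fold (52.7 to 67.0) and 26.2-fold (24.4 to 28.3) for KRTDAP. Cluster 12 over the other keratinocyte-like clusters was 6.10-fold (5.39 to 6.92) and 2.76-fold (2.52 to 3.02).

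SPRP was spread over clusters 12 and 2. Its level was 563 CPM (527 to 601) and 365 CPM (339 to 393) in cluster 12, and 239.8 and 360.4 CPM in cluster 2. In the cryopreserved library cluster 12 over cluster 2 was 1.01-fold (0.924 to 1.11), so these neighbours were not separated there. Cluster 19 had 159 and 175 CPM, cluster 9 had 23.4 and 233 CPM, and cluster 10 had 4.04 and 4.98 CPM. Cluster 12 over the other keratinocyte-like clusters was 4.61-fold (4.18 to 5.08) in the fresh and 1.63-fold (1.49 to 1.77) in the cryopreserved library.

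On the scale of log2(CPM + 1), KRTDAP was higher in cluster 12 by 3.88 and 3.29 and SBSN by 2.59 and 1.46, and both reached 2-fold in each library. SPRP, higher by 2.20 and 0.70, did not. Among 10709 genes tested, 2.51% were at least 2-fold higher in cluster 12 in both libraries and 10.9% at least 2-fold lower. Clusters were drawn from genes that vary along the same axis, so these folds describe the clusters.

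**Figure D1:**
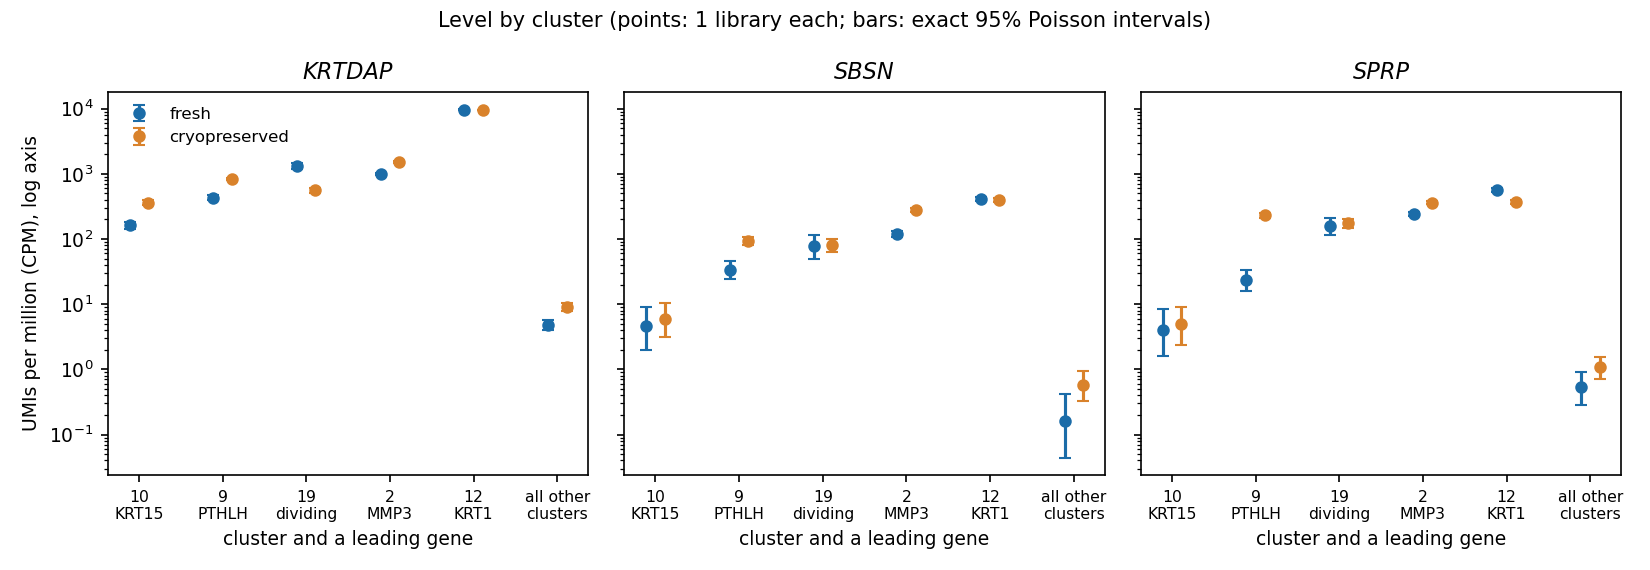
Level of each gene (CPM, log axis) in the keratinocyte-like clusters and in all other clusters together. Points are single libraries and bars are exact 95% Poisson intervals. KRTDAP falls from 9596 and 9527.5 CPM in cluster 12 to 4.81 and 9.02 CPM outside the keratinocyte-like clusters, and the SPRP points of clusters 12 and 2 lie together in the cryopreserved library.

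The MMP3-led cluster 2 held both cells rich in these transcripts and cells with much lower levels of them, which a finer clustering separated. At resolution 1.2, a setting chosen for these levels after seeing the data, 79 fresh and 189 cryopreserved cells of cluster 2 joined 82 and 150 cells of cluster 12 in a KRT1- and KRT10-led cluster. KRTDAP there stood at 6383 and 6138 CPM, SBSN at 330.4 and 429 CPM, and SPRP at 557 and 563 CPM. Another 103 and 156 cells of cluster 2 fell into a cluster led by MMP3 and ITGA2 (an integrin subunit of basal cells). In it KRTDAP stood at 32.3 and 32.8 CPM, SBSN at 51.9 and 74.3 CPM, and SPRP at 14.1 and 22.6 CPM.

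In the remaining clusters of this finer division the 3 genes did not move as 1 block. KRTDAP was at 458 and 621 CPM in the ASCL2- and KRT15-led cluster, where SBSN was at 7.61 and 12.4 CPM and SPRP at 4.35 and 4.13 CPM. That cluster held 14 fresh and 24 cryopreserved cells of cluster 12 beside 119 and 208 cells of cluster 10. In cluster 10 itself KRTDAP was at 162 and 363 CPM, and the part of the cells from cluster 12 was not tested. The cluster led by HSD17B2 had 118 and 449 CPM of KRTDAP, 20.95 and 62.5 CPM of SBSN, and 8.54 and 96.8 CPM of SPRP. The stage difference of SPRP depended on where the boundary was drawn: the lower of its 2 log2 ratios was 3.19 at resolution 1.2, against 0.70 in the main clustering and -0.16 with the 3 genes among the clustering features.

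**Figure D2:**
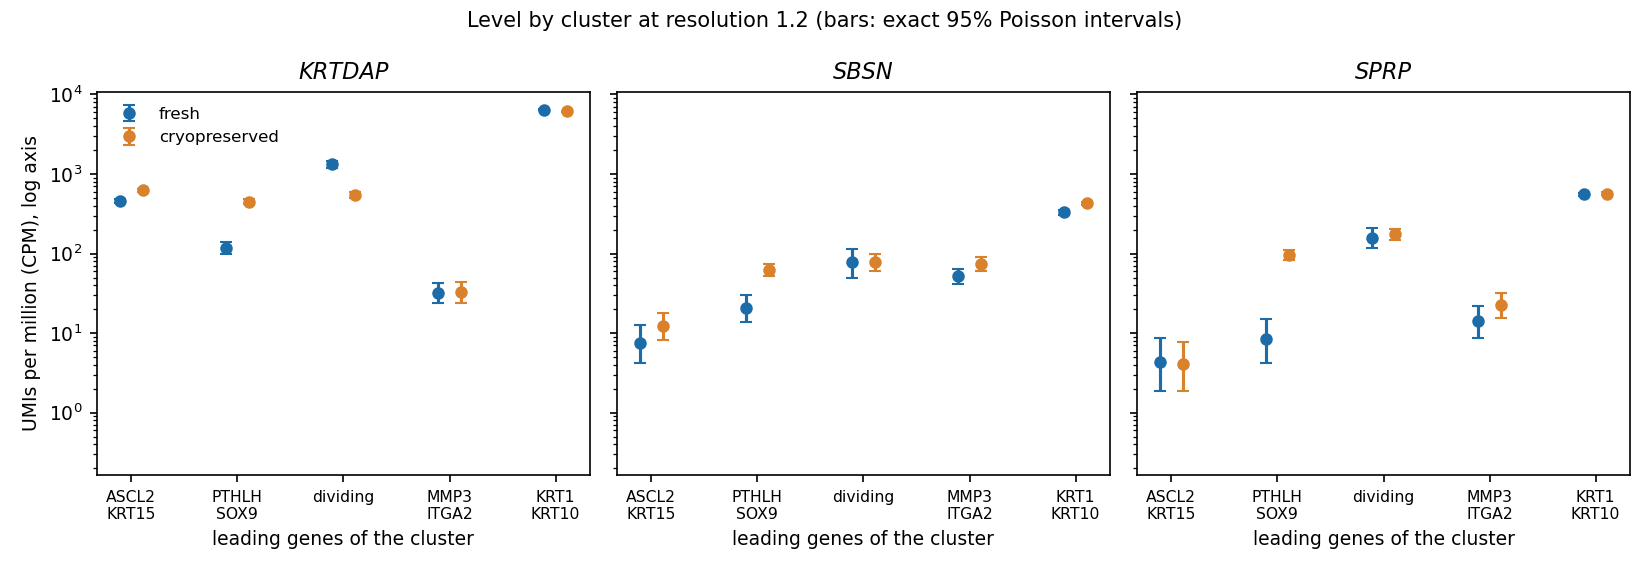
Level of each gene (CPM, log axis) in the keratinocyte-like clusters at resolution 1.2, named by leading genes. Points are single libraries and bars are exact 95% Poisson intervals. All 3 genes are highest in the KRT1- and KRT10-led cluster, and KRTDAP is lowest in the MMP3-led cluster at 32.3 and 32.8 CPM.

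Ranking all keratinocyte-like cells by their share of KRT1 and KRT10 UMIs gave an account that needs no cluster boundary. From the lowest to the highest of 5 equal groups, of 106 cells each in the fresh library, KRTDAP was at 30.5, 25.6, 130.2, 1047 and 9157 CPM. In the cryopreserved library, with 211 or 212 cells a group, it was at 22.5, 59.5, 150.4, 1745 and 9367 CPM. The steepest steps were the last ones, and the highest group held 90.3% and 83.3% of the KRTDAP UMIs of keratinocyte-like cells.

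SBSN was at 27.2, 35.9, 22.6, 69.3 and 439.8 CPM along the fresh ranking and at 30.4, 53.8, 73.5, 207 and 511 CPM along the cryopreserved ranking. SPRP was at 2.47, 16.7, 7.31, 73.2 and 785 CPM in the fresh library and at 30.4, 25.8, 71.6, 269.5 and 728 CPM in the cryopreserved library. The highest group held 78.5% and 60.9% of SBSN UMIs and 90.8% and 66.8% of SPRP UMIs, so all 3 genes peaked in the cells with the most KRT1 and KRT10. Ranked instead by the share of KRT5, KRT15 and the integrin ITGA6, the group with the least of these basal transcripts held 54.4% and 56.3% of KRTDAP, 45.7% and 45.0% of SBSN, and 61.5% and 47.9% of SPRP UMIs. The group with the most of them held 9.94% and 10.4% of KRTDAP, 6.63% and 6.59% of SBSN, and 0.726% and 1.53% of SPRP UMIs. Cells of the highest group by KRT1 and KRT10 were also deeper, with a median of 18884 and 11468 UMIs against 11156 and 6752 in the lowest group, and the part of depth was not tested.

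**Figure D3:**
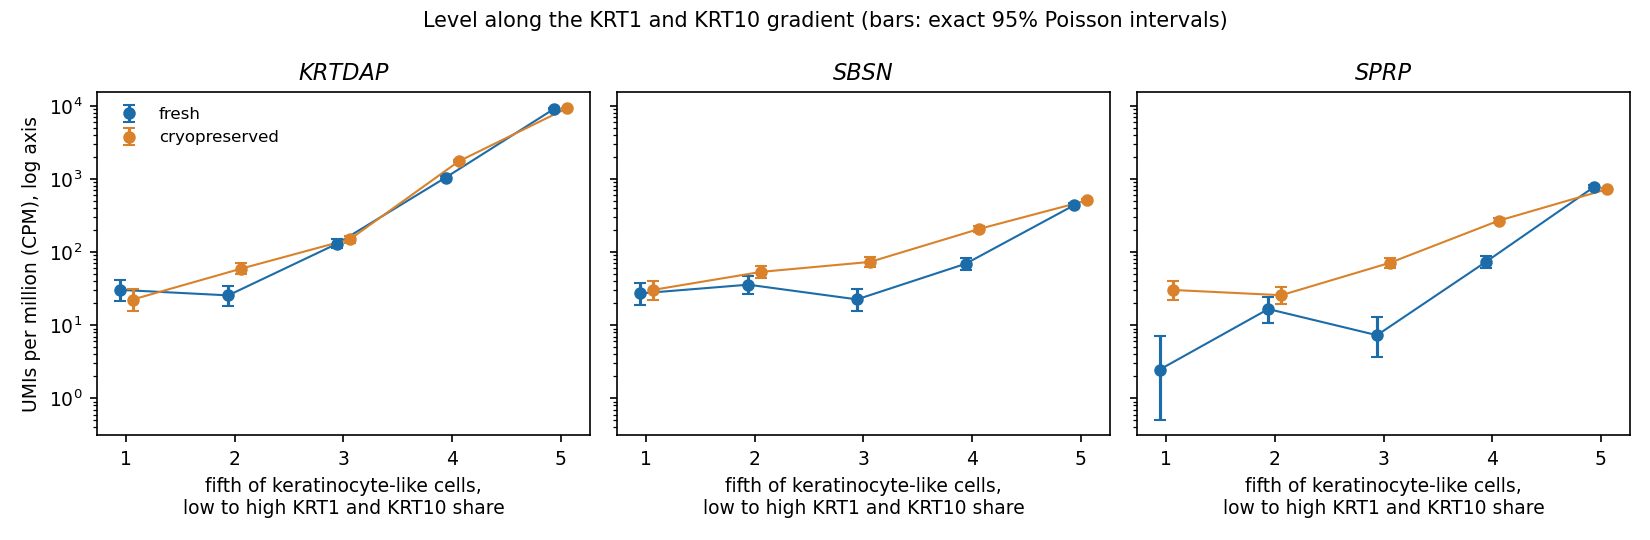
Level of each gene (CPM, log axis) in 5 equal groups of keratinocyte-like cells ordered from low to high share of KRT1 and KRT10 UMIs. Points are single libraries and bars are exact 95% Poisson intervals. KRTDAP rises from 30.5 and 22.5 CPM in the lowest group to 9157 and 9367 CPM in the highest, and the largest step of SBSN and SPRP in the fresh library is the last.

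The 3 genes differed in how their transcripts were divided among cells. In cluster 12 a KRTDAP UMI was present in 93 of 96 fresh cells (96.9%) and 172 of 174 cryopreserved cells (98.9%), and the median cell had 8907 and 7657 CPM. SBSN was present in 74.0% and 77.6% of these cells, with a median of 301 and 304 CPM. SPRP was present in 30.2% and 17.2%, and its median was 0 CPM although single cells reached 7935 and 14802 CPM. After thinning each cell to 1000 UMIs, which left out 27 fresh and 32 cryopreserved cells of all classes, the shares were 91.5% and 92.9% for KRTDAP, 30.9% and 28.8% for SBSN, and 17.0% and 7.65% for SPRP. The median depth was 18194 and 11468 UMIs in cluster 12, against 9672 and 7156 outside the keratinocyte-like clusters. Outside them, the thinned shares were 0.450% and 0.637% for KRTDAP, 0.0450% and 0.0955% for SBSN, and 0.0450% and 0.0637% for SPRP. Other keratinocyte-like clusters lay between: the thinned KRTDAP share was 25.1% and 33.1% in cluster 2 and 15.6% and 14.4% in cluster 10.

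SPRP transcripts were concentrated in few cells. In cluster 12, 5 of 96 fresh and 3 of 174 cryopreserved cells held 50% of its UMIs, whereas 22 and 35 cells did for KRTDAP and 20 and 30 cells for SBSN. Over all keratinocyte-like cells, 25 fresh and 60 cryopreserved cells had more than 1000 CPM of SPRP, and they held 87.5% and 84.6% of its UMIs in these clusters. Of these cells 13 and 16 were in cluster 12 and 11 and 33 in cluster 2. Their median KRTDAP level was 5590 and 5326 CPM and their median SBSN level 447 and 547 CPM, while in the remaining keratinocyte-like cells both medians were 0. KRT1 and KRT10 made up a median of 3.23% and 2.14% of their UMIs, so the typical cell with much SPRP was also rich in KRTDAP and SBSN. The maximum filter on UMIs and genes bears on these sums, as given with the flagged results.

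Most single cells of cluster 12 had KRTDAP, with or without SBSN and SPRP. In this cluster, thinned to 1000 UMIs, every one of the 29 fresh and 49 cryopreserved cells with SBSN also had KRTDAP, as did all 16 and 13 cells with SPRP, where 91.5% and 92.9% of all cells had it. Exactly 1 of the 3 genes was seen in 51 of 94 and 103 of 170 cells (54.3% and 60.6%), and all 3 in 10 and 7 cells. SPRP was seen in 34.5% and 14.3% of cells with SBSN and in 9.23% and 4.96% of cells without it. In cluster 2, SPRP was seen in 30.4% and 31.9% of cells with KRTDAP and in 2.92% and 2.99% of cells without it. With SBSN the shares there differed less: SPRP was seen in 14.3% and 14.5% of cells with SBSN and in 9.47% and 12.2% without it. Across the cells of cluster 12, which share a library and differ in depth, Spearman's correlation was 0.71 (96 cells) and 0.64 (174 cells) for KRTDAP and SBSN, 0.37 and 0.30 for SBSN and SPRP, and 0.21 and 0.16 for KRTDAP and SPRP. In cluster 10, where SBSN and SPRP were nearly absent, it was 0.029 and 0.34 for KRTDAP and SBSN. For KRTDAP and SPRP it was 0.087 and -0.078 there, and for SBSN and SPRP -0.039 and -0.026.

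Between the libraries, summed over all filtered cells, each gene was higher in the cryopreserved one, by an amount that depended on the cell filter. KRTDAP was at 605 CPM (596 to 613) in the fresh and 759 CPM (750.0 to 768) in the cryopreserved library, a log2 ratio of 0.33. SBSN was at 33.3 and 56.6 CPM, a log2 ratio of 0.77, and SPRP at 51.6 and 73.7 CPM, a log2 ratio of 0.51. None of the 3 reached 2-fold, which 0.556% of 11692 genes did in either direction, and the median absolute log2 ratio over those genes was 0.21. In such sums more cells of a type and more RNA per cell cannot be told apart. Keratinocyte-like cells were 19.1% (17.7 to 20.6) of fresh and 25.1% (23.8 to 26.4) of cryopreserved cells. With each cluster given the same share in both libraries (equal cluster shares), an alternative added after seeing the data, the log2 ratios were 0.14, 0.56 and 0.28. With all barcodes they were 0.044, 0.44 and 0.077, and the maxima had removed 54.0% of fresh but 19.7% of cryopreserved KRTDAP UMIs.

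Within cluster 12 the KRTDAP level hardly moved, with a log2 ratio of -0.01 (-0.04 to 0.02), and SBSN was at -0.03 (-0.18 to 0.12). SPRP was lower in the cryopreserved library, with a log2 ratio of -0.62 (-0.77 to -0.48). None reached 2-fold, which 2.01% of 6806 genes did, and the median absolute log2 ratio was 0.23. The size of the SPRP ratio changed with the cells and the boundary used. Without the cell richest in it in each library it was -0.81, and in the KRT1- and KRT10-led cluster at resolution 1.2 the levels were 557 and 563 CPM.

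In clusters 2 and 9, both named stem-like though cluster 2 also had differentiated markers, the levels of all 3 genes were higher in the cryopreserved library. In cluster 2 the log2 ratio was 0.63 (0.56 to 0.70) for KRTDAP, 1.198 (1.02 to 1.38) for SBSN and 0.59 (0.45 to 0.73) for SPRP. The libraries filled cluster 2 differently at resolution 1.2. Its cells in the KRT1- and KRT10-led and the MMP3-led cluster were 79 and 103 fresh and 189 and 156 cryopreserved cells. In the MMP3-led cluster KRTDAP was at 32.3 and 32.8 CPM, SBSN at 51.9 and 74.3 CPM, and SPRP at 14.1 and 22.6 CPM. In the KRT1- and KRT10-led cluster KRTDAP was at 6383 and 6138 CPM, SBSN at 330.4 and 429 CPM, and SPRP at 557 and 563 CPM. The part of this division in the ratios of cluster 2 was not tested. In cluster 9 the log2 ratio was 0.95 (0.82 to 1.09), 1.45 (0.98 to 1.95) and 3.32 (2.79 to 3.89) for the 3 genes. The SPRP ratio there rested on few cells. An SPRP UMI was seen in 8.49% of fresh and 11.7% of cryopreserved cells of cluster 9. Of its 247 cryopreserved cells, 3 held 50% of the SPRP UMIs and 10 held 91.5%. In cluster 9 of the fresh library 1 of 106 cells held 309 of 574 KRTDAP UMIs (53.8%). Without the richest cell of each library KRTDAP stood at 203 and 731 CPM there, a log2 ratio of 1.85, and SPRP at 12.2 and 181 CPM, a log2 ratio of 3.88. In cluster 10 KRTDAP had a log2 ratio of 1.17 (0.97 to 1.37), and SBSN and SPRP had intervals that spanned 0 on 7 to 12 UMIs a library. Cluster 19, with 23 and 72 cells, went the other way for KRTDAP at -1.23 (-1.42 to -1.04). For SBSN it gave 0.05 (-0.64 to 0.78) and for SPRP 0.14 (-0.33 to 0.63), which without the richest cell became 1.88 (0.99 to 2.92).

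**Figure D4:**
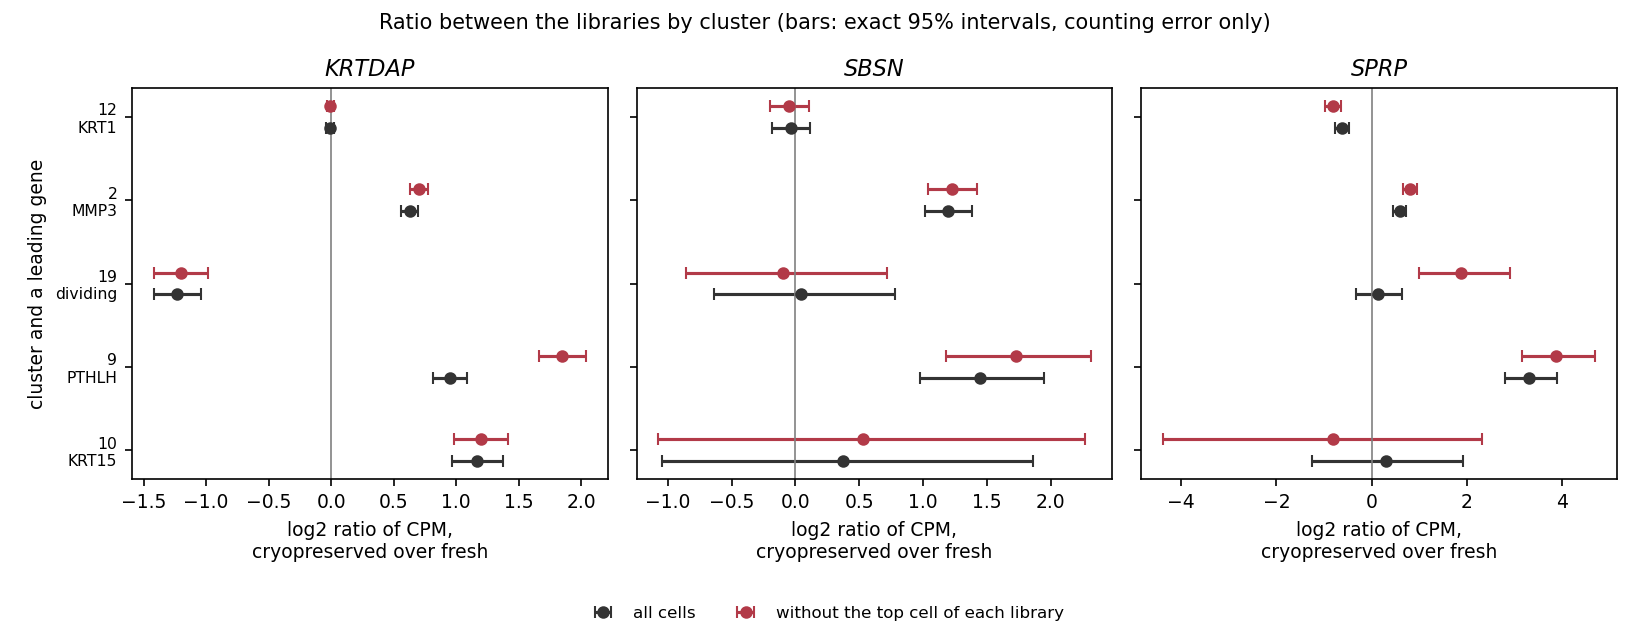
Log2 ratio of CPM, cryopreserved over fresh, of each gene in the 5 keratinocyte-like clusters, with all cells and without the cell richest in the gene in each library. Bars are exact 95% intervals for counting error only. KRTDAP and SBSN sit at 0 in cluster 12 (-0.01 and -0.03) and above 0 in clusters 2 and 9, while SPRP is at -0.62 in cluster 12 and 3.32 in cluster 9.

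The genes whose levels followed these 3 most closely over 45 profiles of cluster and library were themselves genes of differentiating keratinocytes. The measure was Pearson's r of log2(CPM + 1), a description over profiles that share 2 libraries, in which the low values of all non-keratinocyte clusters count for much. Nearest to KRTDAP were KRT10 (r = 0.946), ENSSSCG00000024281 (r = 0.946), the desmosomal cadherin gene DSC1 (r = 0.944), LYPD6B (r = 0.943) and RHOV (r = 0.943). Nearest to SBSN were SPRP (r = 0.951), GRHL3 (r = 0.939), which encodes a transcription factor of barrier formation, KRTDAP (r = 0.929) and CYP4F22 (r = 0.928), an enzyme of barrier ceramide synthesis. Nearest to SPRP were SBSN, GRHL3 (r = 0.946), KRT1 (r = 0.928), the desmosomal cadherin gene DSG1 (r = 0.924) and RHOV (r = 0.922). KRTDAP and SPRP had r = 0.915 with each other.

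The neighbours of the genes on the chromosome were looked up as well. DMKN, between KRTDAP and SBSN, was at 399.6 and 402 CPM in cluster 12, 63.8 and 110.4 CPM in the other keratinocyte-like clusters and 2.32 and 2.77 CPM elsewhere. TMEM147, on the far side of SBSN, was at 121 and 141 CPM in cluster 12 and still at 47.4 and 56.6 CPM outside keratinocytes, so the restriction to keratinocytes was not shared by every gene of the region. IVL (involucrin, a classical envelope precursor) near SPRP was at 4.36 and 15.9 CPM in cluster 12 and 11.8 and 6.72 CPM in the other keratinocyte-like clusters.

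Among other genes of late differentiation, those of the cornified envelope were often higher in cluster 12. Of 49 envelope genes 22 were found by symbol and 14 tested, of which 9 were at least 2-fold higher in both libraries and 0 lower, with a median log2 ratio of 1.71. Over all genes tested in this comparison 2.51% were higher and 10.9% lower, and the median was -0.20. LY6D was at 5391 and 4620 CPM in cluster 12 against 1425 and 1131 CPM in the other keratinocyte-like clusters. CSTA (cystatin A, a protease inhibitor cross-linked into the envelope) was at 744 and 695 CPM against 44.6 and 66.9 CPM. PPL (periplakin) reached 261 and 338 CPM against 237 and 248 CPM, and KRT2 66.6 and 117 CPM against 37.9 and 64.5 CPM, both below 2-fold. KRT2, CALML5 and LYPD3 of this list, and SERPINB5, DSG1 and DSC1 of the lists that follow, also served as markers for naming cluster 12. CALML5, a calmodulin-like protein gene chosen after its values were seen, reached 2-fold between libraries in cluster 12, at 54.1 and 122 CPM, the only gene of the 5 lists to do so among those with at least 50 UMIs there.

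Of 27 barrier lipid genes 17 were tested, and 7 were at least 2-fold higher (2.51% of all genes) and 0 lower (10.9%), with a median of 1.17. ABCA12, the lipid transporter of lamellar granules, was at 145 and 144 CPM in cluster 12 against 10.8 and 8.23 CPM. ABHD5, a coactivator of lipases, was at 649 and 455 CPM against 255 and 264 CPM, which passed 2-fold in the fresh library only. DEGS1 (a ceramide desaturase) at 285 and 355 CPM, PSAP (prosaposin) at 202 and 229 CPM and SGPP2 at 189.8 and 206 CPM differed less, by log2 ratios between -0.04 and 0.41.

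Among proteases and inhibitors 5 of 13 tested genes were higher (2.51% of all genes) and 0 lower (10.9%), with a median of 0.26. SPINK5, an inhibitor of the kallikreins that shed the outer layer, was at 169.9 and 149 CPM against 62.8 and 66.6 CPM. SERPINB5 was abundant in every stage, at 991 and 863 CPM against 817 and 740.1 CPM. SPINT2 had log2 ratios of 0.27 and 0.25, ST14 (matriptase) 0.07 and 0.29, and SPINT1 -0.15 and -0.84.

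Of the regulators, 6 of 30 tested genes were higher (2.51% of all genes) and 4 lower, a share near the 10.9% of all genes, with a median of 0.04. HES1, a target of Notch signalling, was higher at 285 and 444 CPM against 121 and 151 CPM. KLF4, a transcription factor of terminal differentiation, was at 809 and 756 CPM against 479 and 464 CPM, and POU2F3 at 401 and 361 CPM against 265 and 205 CPM, both below 2-fold. CEBPB had log2 ratios of 0.06 and -0.30. The lower genes were TP63, the factor of basal keratinocytes and a marker used in naming the stem-like clusters, at 310.0 and 359 CPM against 1146 and 898 CPM, and VDR (vitamin D receptor) at 97.1 and 103 CPM against 245 and 215.5 CPM. JAG2, a Notch ligand, was at 0 and 0.992 CPM against 34.1 and 46.6 CPM, and ELF3 at 1.24 and 1.98 CPM against 6.69 and 13.8 CPM.

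Of the desmosome and scaffold genes, 4 of 12 tested were higher (2.51% of all genes) and 1 lower, a share near the 10.9% of all genes, with a median of 0.78. The lists overlap: EVPL, higher here, was also counted among the higher envelope genes. CASP14 was counted among both the higher envelope genes and the higher proteases. DSG1 and DSC1, also higher here, were naming markers of cluster 12. PERP stood at 5765 and 5839 CPM against 2427 and 2447 CPM, and DSG1 at 1255 and 1331 CPM against 417 and 411 CPM. DSP (desmoplakin) had log2 ratios of 0.67 and 0.77, PKP1 of 0.95 and 1.38, and DSC2 of 0.18 and 0.28. PKP2, the plakophilin that was lower, was at 2.49 and 2.97 CPM against 8.81 and 10.3 CPM. The stage ratios of KRTDAP (3.88 and 3.29) lay near those of CSTA (4.03 and 3.36) and ABCA12 (3.63 and 3.97), and those of SBSN (2.59 and 1.46) near DMKN (2.63 and 1.85).

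**Figure D5:**
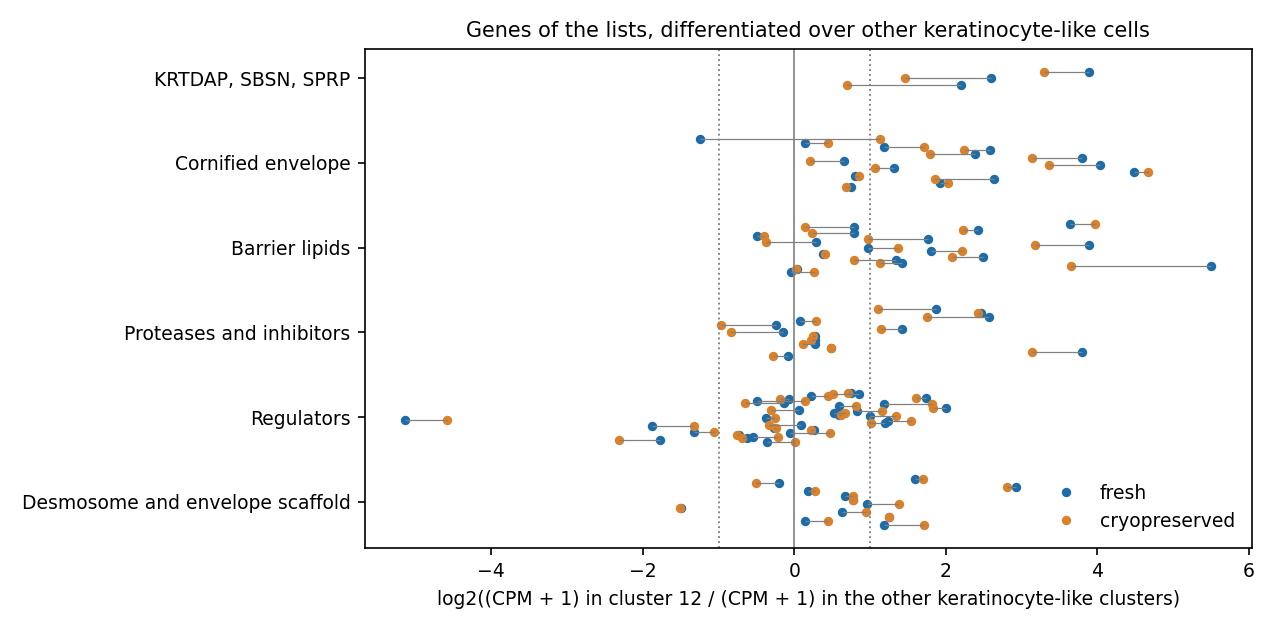
Log2((CPM + 1) in cluster 12 over (CPM + 1) in the other keratinocyte-like clusters) for the tested genes of each list, with KRTDAP, SBSN and SPRP in the top line. Each point is 1 gene in 1 library and dotted lines mark 2-fold. Most envelope genes lie right of 0, with a median of 1.71, while regulators lie on both sides, with a median of 0.04.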

How the data were processed

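The authors mapped reads of both 10x 3′ libraries with Cell Ranger 4.0.0 (STAR 2.5.1b, per the labels) to Sscrofa11.1 with the Ensembl annotation and deposited UMI counts per gene and barcode, without normalization. The 3 genes and the gene lists were chosen with earlier results of these data known. Cells with at most 4500 genes, 30000 UMIs and 10% of UMIs on 13 mitochondrial protein-coding genes were kept, integrated and clustered with Seurat 5.3.0 (2000 features without the 3 genes, 30 dimensions, resolution 0.8). A cluster was named where at least 3 markers were in at least 10% of its cells and at least 2-fold above the rest. UMIs were summed over cells and scaled to CPM, with no correction for length. KRTDAP UMIs were set against those of other genes only as shares, within and outside the keratinocyte-like clusters. With 1 library per condition no test was run. Intervals are exact 95% Poisson (CPM), binomial (shares) or conditional binomial (ratios) intervals.

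Genes needed 200 UMIs in all cells, or 50 in the cells compared, to enter the background counts. Stage and list ratios are on the log2(CPM + 1) scale. Genes named are the 3 genes, the 5 most alike to each, and from each list the 5 highest in cluster 12 with every gene called lower. Some genes that this rule names are not reported here. The methods describe FACS gates against doublets, without saying which sorted cells were loaded. Scrublet (scanpy 1.11.5) marked 3 fresh and 35 cryopreserved filtered cells, which were kept. Sequences and coordinates came from RefSeq on Sscrofa11.1. Alternatives used edgeR 4.0.16 (TMM) and DESeq2 1.42.0 (size factors) for scaling only. The scripts were tested on simulated data in Python 3.11.15 and R 4.3.3.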

Additional observations from a re-analysis of the deposited data

Results flagged for a closer look

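The ratio between libraries had opposite signs in different keratinocyte-like clusters for KRTDAP and SPRP, with intervals apart from 0 on both sides. For KRTDAP the log2 ratio, cryopreserved over fresh, was -1.23 in cluster 19 but 0.63 in cluster 2, 0.95 in cluster 9 and 1.17 in cluster 10. For SPRP it was -0.62 in cluster 12 but 0.59 in cluster 2 and 3.32 in cluster 9, where 3 of 247 cryopreserved cells held 50% of its UMIs. With 1 library per condition these differences between clusters were not tested, and cluster 19 held only 23 fresh and 72 cryopreserved cells.

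All 3 genes were abundant in the barcodes outside the maxima, which the main comparisons left out. In the 1604 fresh barcodes removed, KRTDAP was at 1091 CPM, SBSN at 61.6 CPM and SPRP at 109.9 CPM, and in the 637 cryopreserved barcodes at 1233, 83.9 and 112 CPM. The maxima removed 54.0% of KRTDAP, 54.6% of SBSN and 58.1% of SPRP UMIs from the fresh library, against 39.4% of all its UMIs. In the cryopreserved library they removed 19.7%, 18.3% and 18.6%, against 13.1% of all UMIs. Most of the loss came from the limits on genes and UMIs, at 53.0% of fresh KRTDAP UMIs, and 1.05% came from the mitochondrial limit alone. When all barcodes were clustered anew, 50 removed fresh and 19 removed cryopreserved barcodes were differentiated keratinocyte-like. KRTDAP there was at 10063 and 8792 CPM, against 10057 and 9308 CPM in the kept cells of that clustering, and SPRP at 130.2 and 98.6 CPM against 377 and 227 CPM. In the epidermal stem-like barcodes of that clustering SPRP went the other way. It was at 302 and 284 CPM in the 436 and 159 removed barcodes, against 180 and 258 CPM in the kept cells.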

How the results depend on the processing

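The confinement of the 3 genes to keratinocytes was described in the main clustering alone. The stage difference of KRTDAP and SBSN was above 0 in both libraries under every alternative that gave a value, and that of SPRP was not. At resolution 0.4 no cluster was named differentiated keratinocyte-like, so that alternative gave no value. No paired analysis was possible because each condition has 1 library and no test was run. Of the values that answer a comparison, 36 stayed within their interval (counts within 1.5 times), 49 moved and 3 reversed, and the cause was not tested.

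For the ratio between libraries over all cells the values for KRTDAP, SBSN and SPRP were 0.044, 0.44 and 0.077 with all barcodes, 0.49, 1.01 and 0.62 as means of per-cell CPM, and 0.14, 0.56 and 0.28 with equal cluster shares. KRTDAP was 0.36 without the mitochondrial limit or without the 5% of cells with the highest Scrublet scores, and 0.37 with TMM or DESeq2 factors. Within the differentiated cells (270 in the main clustering) they were -0.13, -0.27 and -0.29 with all barcodes (296 cells), -0.11, 0.33 and -0.10 without the mitochondrial limit (499 cells), -0.056, 0.38 and 0.016 at resolution 1.2 (514 cells), and -0.16, 0.25 and -0.30 with libraries merged without integration (487 cells). KRTDAP was 0.044 and SBSN 0.19 as per-cell means, KRTDAP was -0.062 with TMM and -0.074 with DESeq2 factors, and SPRP was -0.81 without its richest cells.

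For the stage ratio, the lower of both libraries on the log2 scale (3.29, 1.46 and 0.70), the values were 2.95, 0.98 and -0.37 with all barcodes, 3.62, 2.72 and 2.54 without the mitochondrial limit, 3.82, 3.08 and 3.19 at resolution 1.2, 3.02, 1.04 and -0.16 with the genes kept among the clustering features (243 cells), and 3.86, 2.65 and 2.15 without integration. Per-cell means gave 3.47 for KRTDAP and 1.75 for SBSN, and SPRP was 0.34 without its richest cells. At 4-fold the list counts were 4 for the envelope, 5 for barrier lipids, 2 for proteases, 0 for regulators and 1 for desmosomes. The share of all genes at 4-fold was not computed, so these counts cannot be set against it. The alternatives chosen after seeing the data were equal cluster shares, single clusters without their richest cell, and levels by cluster at resolution 1.2.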
